A study of Rattus norvegicus with 2 samples.

Results

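The miR-23, miR-27 and miR-24 hairpins of the rat were followed in left ventricular small RNA of a swimming-trained and a control heart. They were picked by name from the deposited rows, as mir-23a, mir-23b, mir-27a, mir-27b, mir-24-1 and mir-24-2, and make up 6 of the 191 rows for which a ratio could be formed. The 2 mir-24 rows carried equal counts in each library and were treated as a single measurement, written mir-24, so that 5 measurements remained. All 5 passed the minimum of 20 counts over both libraries, as 173 entries did.

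The swim library came from Wistar rats that swam daily, in 2 bouts of 90 minutes each, during 8 weeks, a training that enlarges the heart physiologically. The control library came from Wistar rats for which the labels name no swimming. Both libraries are from animals aged 16 weeks kept with free access to feed and water. Each condition was 1 library, and how many animals gave it RNA is not stated in the labels. Every difference below is therefore one between 2 libraries, its interval covers counting error only, and no p-value was computed.

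In mammals these hairpins form paralogous clusters of 3, each with a miR-23, a miR-27 and a miR-24 hairpin on a shared primary transcript. A microRNA guides a silencing complex to messenger RNAs that pair with its seed, bases 2 to 8 from the 5′ end, so microRNAs with the same seed are grouped as a family. In cultured rodent cardiomyocytes miR-23a is known as a pro-hypertrophic miRNA downstream of the transcription factor NFATc3. MiR-27 is known for targeting the nuclear receptor PPARγ and, in endothelium, the guidance protein semaphorin 6A. MiR-24 is known in cardiomyocytes for targeting junctophilin-2, which holds the T-tubule to the sarcoplasmic reticulum.

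The mature sequences show which members can silence the same messages and how hard the rows are to tell apart. They are taken from RefSeq (build GRCr8), in which all 6 hairpins were matched by symbol, and are given 5′ to 3′ for the 3p arm with the seed in capitals.
miR-23a-3p: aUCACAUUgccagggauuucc
miR-23b-3p: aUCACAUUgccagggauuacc
miR-27a-3p: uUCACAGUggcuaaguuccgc
miR-27b-3p: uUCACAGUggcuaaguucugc
miR-24-3p: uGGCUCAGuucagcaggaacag
Within each family the seed is the same, and among the 693 mature names of the RefSeq table no other name carries the miR-23, miR-27 or miR-24 seed at bases 2 to 8. The miR-23 paralogues share their first 18 bases and differ by U19A, from miR-23a-3p to miR-23b-3p. The miR-27 paralogues likewise share 18 bases and differ by C19U, from miR-27a-3p to miR-27b-3p, with positions counted from the 5′ end. A read that stops before base 19 matches both paralogues, and the labels do not state the rule by which such reads were assigned.

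The miR-24 hairpins yield the same 3p sequence, while their 5p arms differ at 5 of 22 positions, shown here in capitals.
miR-24-1-5p: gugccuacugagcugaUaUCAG
miR-24-2-5p: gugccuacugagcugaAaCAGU
Each of the mir-24-1 and mir-24-2 rows held 7259 counts in swim and 6313 in control. The row values thus do not separate the copy of one cluster from that of the other.

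The clusters lie on different chromosomes. In GRCr8, a build other than rn5 and rn4, which the submitters' processing notes name, mir-23a is at chr19:40859769-40859843, mir-27a at chr19:40859603-40859689 and mir-24-2 at chr19:40859455-40859562, each on the minus strand. This cluster spans 389 bases and stands between the protein-coding genes Zswim4 and Nanos3, overlapping no other gene of the RefSeq table. On chromosome 17, also on the minus strand, mir-23b is at chr17:1819386-1819482, mir-27b at chr17:1819147-1819243 and mir-24-1 at chr17:1818669-1818736. This second cluster spans 814 bases and lies within the bounds of Aopep, an aminopeptidase gene. Its mir-24-1 also overlaps the edge of Fancc, a Fanconi anaemia gene, and the microRNA gene Mir3074. Exon and intron positions of these genes were not used here.

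The rows are named for hairpins and do not say which arm was read. The hairpins of the miR-27 pair are printed because the results turn on them, with the 3p arm in capitals.
mir-27a: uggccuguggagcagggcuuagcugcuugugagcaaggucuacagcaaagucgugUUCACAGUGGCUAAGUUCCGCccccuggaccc
mir-27b: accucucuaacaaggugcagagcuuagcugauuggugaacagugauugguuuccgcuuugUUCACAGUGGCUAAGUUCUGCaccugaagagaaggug

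The miRNA rows summed to 3219939 counts in swim and 2460845 in control, and levels are given as depth-scaled counts (CPM) relative to these totals. The labelled tissue was checked against its markers. All 6 heart muscle miRNAs of the list (mir-1, mir-133a, mir-133b, mir-208a, mir-208b and mir-499) had rows, with a summed level of 89544 CPM in swim and 70875 CPM in control. Most of this sum was mir-133a, with 72772 CPM in swim and 61888 CPM in control. Its neighbour mir-1 was far lower, with 820 CPM in swim and 1313 CPM in control. The members did not move together. The ratio of swim to control was 0.624 for mir-1, 0.899 for mir-208a, 1.18 for mir-133a, 1.19 for mir-499, 1.95 for mir-133b and 2.64 for mir-208b. The endothelial mir-126a had 37987 CPM in swim and 37523 CPM in control. The summed smooth muscle pair mir-143 and mir-145 had 187599 CPM in swim and 199692 CPM in control, with ratios of 0.936 for mir-143 and 1.32 for mir-145. For leukocytes, 3 of 5 markers had rows, which summed to 6914 CPM in swim and 6979 CPM in control. Most of this sum was mir-146a, with 4876 CPM in swim and 4576 CPM in control. These markers went different ways, with ratios of 0.785 for mir-142, 0.908 for mir-150 and 1.07 for mir-146a. The leukocyte markers mir-223 and mir-155 had no row. The erythroid mir-144 was at 24.8 CPM in swim and 29.3 CPM in control, the brain marker mir-9a at 48.4 CPM in swim and 169 CPM in control, and the liver marker mir-122 at 1 count in swim and 20 in control. The erythroid mir-451 and mir-486, the brain marker mir-124, the skeletal muscle marker mir-206 and the endothelial mir-126b had no row. The share of blood was therefore not measured by the main erythroid markers. Because these are bulk libraries, fewer cells of a type and less RNA per cell cannot be told apart, and the part of cell composition in the ratios below was not tested.

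The clusters were dominated by a single row. Of the counts of the 5 measurements, mir-27b held 73.0% in swim and 75.9% in control. It had 83491 counts, or 25929 CPM, in swim and 77043 counts, or 31308 CPM, in control, and it ranked as the 9th most abundant of 182 distinct entries in either library. This row alone was 2.59% of the miRNA counts in swim (exact Clopper-Pearson 95% interval 2.58 to 2.61%) and 3.13% in control (3.11 to 3.15%).

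The other 4 measurements lay within a narrow band below it. The mir-27a row, its near-identical paralogue, had 9339 counts (2900 CPM) in swim and 6579 (2673 CPM) in control. The mir-23a row had 8461 counts (2628 CPM) in swim and 7283 (2960 CPM) in control. These 2 neighbours on chromosome 19 exchanged order, mir-27a being the higher in swim and mir-23a in control. For mir-24 the level was 2254 CPM in swim and 2565 CPM in control. The mir-23b row had the lowest level, with 5823 counts (1808 CPM) in swim and 4227 (1718 CPM) in control. Capture of small RNAs into a library is known to depend on their sequence, so a level ranks rows as sequenced, and comparisons of the same row between libraries are less exposed to it.

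**Figure D1:**
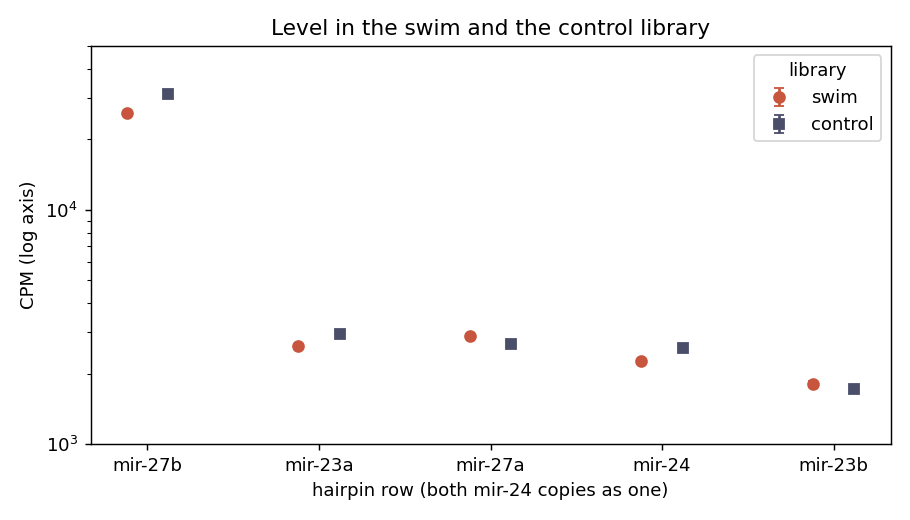
Level of each row in CPM on a log axis in the swim (circles) and control (squares) libraries, 1 library each, with exact 95% counting intervals that are mostly smaller than the symbols. The mir-27b row stands at 25929 CPM in swim and 31308 CPM in control, and the others between 1718 and 2960 CPM.

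None of the 5 measurements differed by as much as 2-fold between the libraries. An entry was called when its log2 ratio, with a pseudocount of 0.5, was at least 1 in size and its 95% interval excluded 1. By that rule 0 of 5 were higher and 0 of 5 lower in swim, against 3.47% of the 173 entries called higher and 32.9% called lower. All 5 stand in the first, high-count part of the deposited table, where 6.67% of 75 entries were called higher and 1.33% lower. A count of 0 among 5 is therefore near what the first part as a whole showed.

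The ratios of swim to control spanned 0.828 to 1.08. The highest was that of mir-27a, at 1.08 (95% interval 1.05 to 1.12), and it was above 1 under each of the 7 other library scalings tried, although only by 0.0035 when the row that names no miRNA was added to the total. Next came mir-23b at 1.05 (1.01 to 1.10), below 1 with that same total and relative to the median of the first part. Their intervals overlap, so these 2 rows were not ordered beyond counting error.

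The other 3 ratios were below 1 on the scale used here. They were 0.888 (0.860 to 0.916) for mir-23a, 0.879 (0.850 to 0.909) for mir-24 and 0.828 (0.820 to 0.836) for mir-27b. All 3 were above 1 under median-of-ratios size factors, TMM factors and unscaled counts, so the direction of each depends on how the libraries are scaled. The intervals of mir-23a and mir-24 overlap almost wholly, and that of mir-27b lies below both.

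The median log2 ratio of the 5 was -0.17, against -0.59 over the 173 entries and 0.09 over the 75 entries of the first part. Of those 75 entries, 64 had a higher ratio than mir-27b and 10 a lower one. For mir-27a, 33 had a higher ratio and 41 a lower one. The members thus run from the middle of the first part down to its lower end. With a smaller size rule of 1.2-fold, 1 of 5 was lower, mir-27b, and 0 were higher. At that size 14.7% of the first part was called lower and 30.7% higher, and over all 173 entries the shares were 52.6% lower and 13.9% higher.

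**Figure D2:**
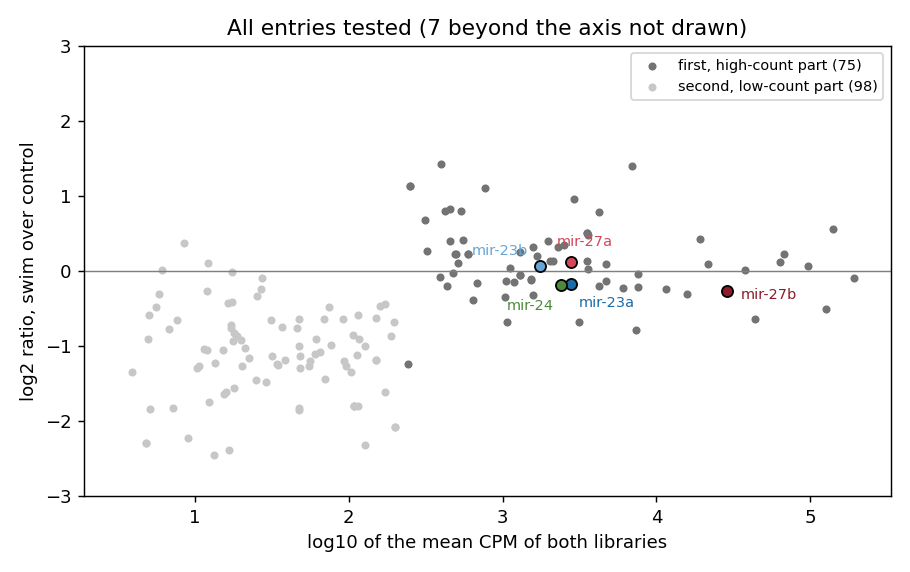
Log2 ratio of swim over control against the log10 mean CPM for the entries tested, with the 75 entries of the first part in dark grey and the 98 of the second in light grey. The 5 measurements (coloured) lie between -0.27 and 0.12 within the cloud of the first part, and 7 entries beyond a log2 ratio of 3 in size are not drawn.

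Summed by seed, the miR-27 family had 28830 CPM in swim and 33981 CPM in control, a ratio of 0.848 (0.841 to 0.856). The miR-23 family had 4436 CPM in swim and 4677 CPM in control, a ratio of 0.948 (0.925 to 0.972). Like the single rows below 1, both sums lie above 1 under median-of-ratios, TMM and unscaled counts. Since 89.9% of the miR-27 counts in swim and 92.1% in control were mir-27b, the family sum is set by that row, while mir-27a had a ratio above 1.

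Summed by cluster, without mir-24, the chromosome 19 pair had 5528 CPM in swim and 5633 CPM in control, a ratio of 0.981 (0.960 to 1.00). The chromosome 17 pair had 27738 CPM in swim and 33025 CPM in control, a ratio of 0.840 (0.832 to 0.848). The cluster sums again differ mainly through mir-27b. All 5 measurements together took 3.55% of the miRNA counts in swim and 4.12% in control. Under median-of-ratios, TMM and unscaled counts, the ratios of both cluster sums and of all 5 together lie above 1.

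Ratios between 2 members of the same library do not depend on scaling. Of the 10 possible pairs, 8 had a change between libraries whose exact conditional 95% interval excluded 1. The 2 pairs whose interval held 1 were mir-27a with mir-23b, at a change of 1.03 (0.979 to 1.08), and mir-23a with mir-24, at 1.01 (0.965 to 1.06). The first of these joins rows of different chromosomes and different seeds. The second also joins different seeds. Whether it joins rows of the same cluster cannot be told, because the mir-24 rows do not separate the copies.

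Within each cluster the miR-27 to miR-23 ratio moved, and in opposite directions. On chromosome 19, there were 1.10 counts of mir-27a per count of mir-23a in swim and 0.903 in control, a change of 1.22 (1.17 to 1.28). On chromosome 17, there were 14.3 counts of mir-27b per count of mir-23b in swim and 18.2 in control, a change of 0.787 (0.755 to 0.820). Relative to its miR-23 neighbour, the miR-27 row was thus higher in swim on chromosome 19 and lower on chromosome 17.

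Within each seed family the ratio between the paralogues also changed, and their levels were closer to each other in swim than in control. There were 8.94 counts of mir-27b per count of mir-27a in swim and 11.7 in control, a change of 0.763 (0.739 to 0.789), which was the furthest from 1 of the 10. For mir-23a over mir-23b the ratio was 1.45 in swim and 1.72 in control, a change of 0.843 (0.802 to 0.887). In the miR-27 family the chromosome 17 member was relatively lower in swim, whereas in the miR-23 family it was the chromosome 19 member. Against mir-24, whose rows cannot be assigned to a cluster, mir-27a changed by 1.23 (1.18 to 1.29), mir-23b by 1.198 (1.14 to 1.26) and mir-27b by 0.942 (0.910 to 0.976).

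Shifts of this size were common among other neighbouring hairpins. Of 24 listed pairs of neighbours, 17 had at least 100 summed counts in each row, and the median absolute log2 change of their within-pair ratio was 0.56. The mir-27b to mir-23b ratio changed by 0.35 on this scale in absolute terms (log2 -0.35), and 14 of the 17 changed more. The mir-27a to mir-23a ratio changed by 0.29, and again 14 of 17 changed more. Among the 8 pairs with both rows in the first part the median was 0.48, and 6 of 8 changed more than either cluster. Examples are mir-133a over mir-1, the muscle pair, at 88.8 in swim and 47.1 in control, and let-7c-1 over mir-99a, at 1.97 in swim and 1.94 in control.

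**Figure D3:**
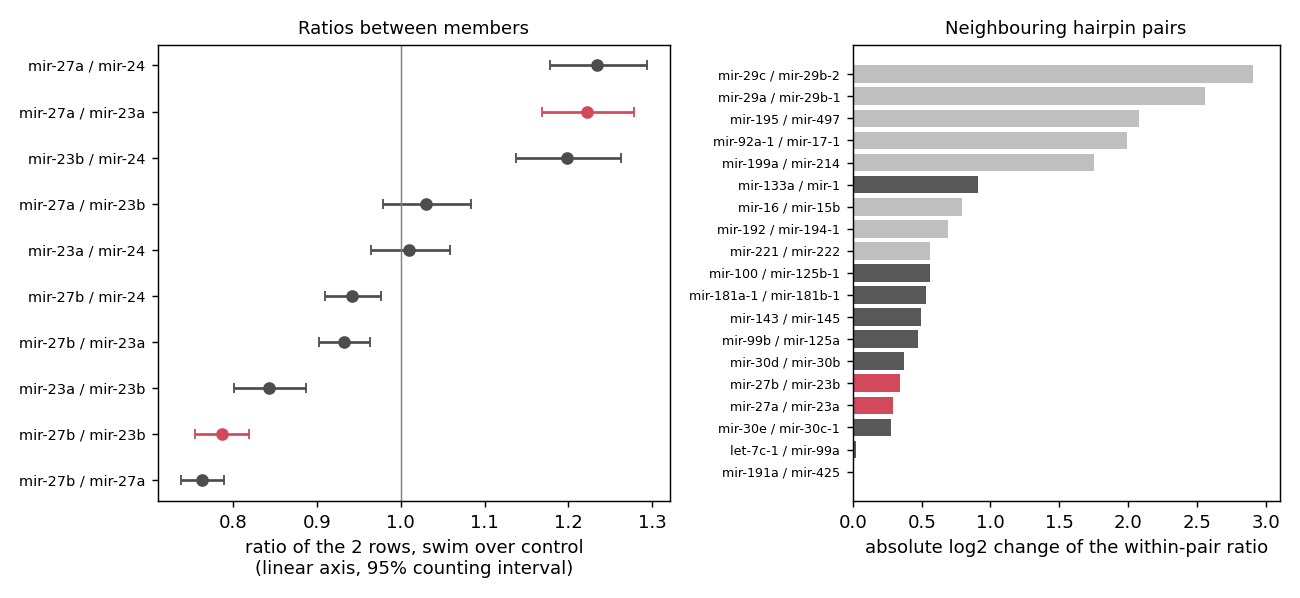
Left, change of the ratio of 2 rows, swim over control, with exact 95% counting intervals for the 10 pairs of members, the within-cluster pairs in red. Right, absolute log2 change of the ratio for neighbouring hairpin pairs, with both rows in the first part (dark grey) or not (light grey), where the clusters (red, 0.35 and 0.29) lie among the smaller changes.

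By level in both libraries (Euclidean distance in log2 CPM over 2 libraries), the closest entry to mir-24 was mir-99a, at a distance of 0.02, with 2278 CPM in swim and 2541 CPM in control. The same entry was the closest to mir-23a, at 0.30. For mir-23b the closest was mir-25, at 0.14, and for mir-27a it was mir-181c, at 0.27. The mir-27b row had no neighbour nearer than mir-378a, at 0.61, which had 22416 CPM in swim and 21067 CPM in control, a ratio of 1.06 (1.05 to 1.08). The runner-up, mir-126a, had a ratio of 1.01 (1.00 to 1.02). Both ratios were above that of mir-27b, an order that no common scaling factor can alter. The second-closest entries were mir-100 to mir-23a at 0.41, mir-99a to mir-27a at 0.36, mir-30b to mir-23b at 0.29 and mir-92a-1 to mir-24 at 0.34.

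For scale, among the 39 distinct entries that had 10000 or more counts over both libraries, the highest ratios were 2.64 for mir-208b, 1.95 for mir-133b and 1.73 for mir-30e, and the lowest were 0.578 for mir-99b, 0.628 for mir-100 and 0.645 for mir-191a. The 5 measurements lie well inside that range.

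Other miRNAs studied in cardiac hypertrophy were read from a list without these clusters. Of its 34 names, 33 entries could be tested, of which 1 was higher (mir-208b) and 7 lower, where the shares over the 173 entries were 3.47% higher and 32.9% lower. Both copies of mir-29b, with equal counts, are among the 7. The median ratio was 0.924, against 0.666 over the 173 entries. Of its 24 entries in the first part 1 was higher and 0 lower, beside first-part shares of 6.67% and 1.33%, and their median of 1.07 compares with 1.06 over the first part. The lower calls, among them mir-29b, which is known for targeting collagen transcripts, and mir-34a, a p53 target, all stood in the second, low-count part, where 57.1% of the entries were lower. The other miR-29 rows of the list, in the first part, went the other way. They were mir-29a at 1.39 (1.36 to 1.43) and mir-29c at 1.78 (1.64 to 1.93). The fibroblast-linked mir-21, in the first part, was at 0.866 (0.850 to 0.883), within the span of the cluster members.

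For miRNAs studied in endothelium and angiogenesis, a process for which the miR-23 and miR-27 families are also known, 24 entries could be tested, of which 2 were higher and 7 lower, beside the same shares of 3.47% and 32.9%. The 2 higher entries are the copies of mir-19b, a miR-17-92 member, whose counts are equal, so they stand for 1 measurement. The miR-17-92 entries of the list that were called lower all stood in the second part. They were mir-17-1 at 0.276, mir-17-2 at 0.281, mir-18a at 0.031 (1 count in swim), mir-19a at 0.293 and mir-20a at 0.407. The median ratio was 0.792, against 0.666 over the 173 entries, and 1.08 among the 10 entries in the first part, against 1.06 there. None of these 10 was lower. The abundant mir-10a had a ratio of 1.05 (1.05 to 1.06). For mir-92a-1, also a miR-17-92 entry but in the first part and not called, it was 1.10 (1.06 to 1.14). The other copy, mir-92a-2, in the second part, had 0.550 (0.484 to 0.623).

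Scaling moved every single-row ratio by a common factor. The median log2 ratio over all 173 entries rose by 0.59 under median-of-ratios size factors, by 0.30 under TMM factors and by 0.39 with unscaled counts, and it dropped by 0.11 when the row that names no miRNA was added to the total. The order mir-27a, mir-23b, mir-23a, mir-24, mir-27b cannot change under such a factor. Each of the 5 had a ratio above the median ratio of all 173 entries, 0.666. Against the first part's own median, 1.06, only mir-27a was above. Relative to that median it was at 1.02 (0.988 to 1.05) and mir-23b at 0.989 (0.951 to 1.03). Both intervals hold 1, so neither row was separated from the median beyond counting error.

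**Figure D4:**
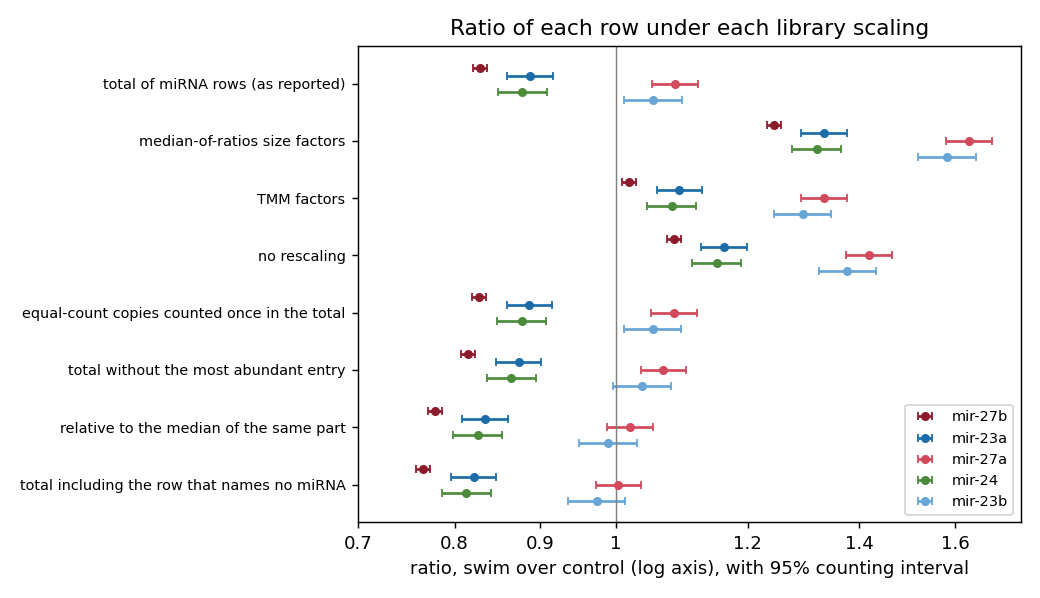
Ratio of swim over control on a log axis for each row under 8 library scalings, with exact 95% counting intervals. All 5 rows lie above 1 under median-of-ratios, TMM and unscaled counts, while mir-27b, mir-23a and mir-24 lie below 1 under the other 5.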

How the data were processed

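The authors deposited 1 table of whole-number counts per library, with 203 rows under hairpin names. Total RNA was taken with a Qiagen miRNEasy kit and turned into small RNA libraries the standard Illumina way, per the labels' protocols. Bowtie 0.12.2 and the builds rn5 and rn4 are named, with no role, per the submitters' processing notes. How adapters were trimmed, how reads matching several hairpins were counted, which miRNA release was used and how low counts were treated: none of this is recorded in the labels.

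The row Others (12.5% of counts in swim, 5.41% in control) and 9 asterisk rows, each repeating an unmarked row, were left out. The 2 unmarked let-7e rows, with opposite counts, stayed in the totals only. The table's first 81 rows stand in falling order of ratio and the other 122 in falling order of control count, and these are called its parts.

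Ratios of CPM carry exact conditional binomial intervals, and ratios between rows carry Fisher's conditional intervals (scipy 1.17.1). As no molecular identifiers are recorded, PCR copies may count as separate molecules, and the intervals cover counting error only. TMM factors came from edgeR 4.0.16, used for nothing else. The code for ratios and intervals was tested on simulated data. Alternatives were 7 scalings, a pseudocount of 5, other count filters, a 1.2-fold rule and separate mir-24 copies.

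Named entries are the members, the 2 entries nearest to each in level, the 3 highest and 3 lowest ratios among entries of at least 10000 summed counts, and members of the lists. Outside this rule, mir-181d, mir-128-1 and mir-128-2 were named for their position or sequence after their values were seen. The members and lists were chosen with earlier results of these data known.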

Additional observations from a re-analysis of the deposited data

Results flagged for a closer look

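The row that names no miRNA held 12.5% of all counts in the swim library and 5.41% in the control library. It enters the results above only where it is added to the total as an alternative scaling. It was noted because it is data outside the miRNA rows and stands above its level in the control. With it in the totals, mir-23b moved to a ratio of 0.974 and mir-27a to 1.00. The labels do not state what these reads are.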

How the results depend on the processing

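No paired analysis was possible because each condition has 1 library, and for the same reason no library could be left out. Ratios are listed in the order mir-23a, mir-27a, mir-23b, mir-27b and mir-24, each set followed by the median log2 ratio of the 5. Median-of-ratios size factors gave 1.33, 1.63, 1.58, 1.24 and 1.32, median 0.42. TMM factors gave 1.09, 1.33, 1.29, 1.02 and 1.08, median 0.13. Unscaled counts gave 1.16, 1.42, 1.38, 1.08 and 1.15, median 0.22. The total with the row that names no miRNA gave 0.821, 1.00, 0.974, 0.766 and 0.813, median -0.28. Relative to the first part's median they were 0.834, 1.02, 0.989, 0.778 and 0.826, median -0.26. Without mir-143, the most abundant entry, in the total, mir-27b was at 0.815. None of these settings gave a 2-fold call, and the 1.2-fold rule gave 1 lower call, mir-27b. Ratios between members cannot move with scaling, and the count filters and the pseudocount do not enter the single-row ratios, so these settings say nothing about stability. With a pseudocount of 5 the 10 ratios between members stayed within their counting intervals. Ordering by table part depends on the counts compared here. With 4227 counts in control, the smallest of the 5 rows carries a counting error that leaves a ratio uncertain by about 4%, and the spread between animals is unknown.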

Other observations

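The rows mir-181c and mir-181d were picked by name to compare with the chromosome 19 cluster, and no search for the nearest hairpins was made. In GRCr8 mir-181c begins 28447 bases beyond mir-23a. The mir-181c row had 9097 counts in swim and 5464 in control, a ratio of 1.27 (1.23 to 1.32), and mir-181d had 1133 counts in swim and 719 in control, a ratio of 1.204 (1.10 to 1.32). Both ratios are above those of mir-23a and mir-27a, with intervals that do not overlap that of mir-23a. The interval of mir-181d does overlap that of mir-27a (1.05 to 1.12).

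The letters of the miR-27 seed also open another miRNA, shifted by 1 base, the only RefSeq name found in a search for this seed moved by 1 position. It is printed with those letters in capitals.
miR-128-3p: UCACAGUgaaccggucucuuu
Its rows were far less abundant than those of miR-27. The mir-128-1 row had 134 counts in swim and 217 in control, a ratio of 0.472 (0.378 to 0.588), and mir-128-2 had 97 counts in swim and 162 in control, a ratio of 0.458 (0.352 to 0.592). Both are in the second part of the table, where 57.1% of entries were called at least 2-fold lower.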
